A study of Mus musculus with 24 samples.

Results

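The transcripts of 9 enzyme subunits of the tricarboxylic acid (TCA) cycle were followed in mouse oesophagus: Cs, Idh3a, Idh3b, Idh3g, Ogdh, Sucla2, Suclg1, Fh1 and Mdh2. They were chosen by name, as the probes whose gene name in the scanner files is one of these symbols, which gave 13 of 41174 probes and 9 of the 20542 genes tested. The study measured total RNA of oesophagi of male C57BL/6J mice aged 12 weeks, wild type or Nrf2-/- (lacking the transcription factor Nrf2, gene Nfe2l2; called Nrf2-null below). Each genotype was sampled without reflux and with reflux of 3 kinds, gastric, duodenal or mixed, lasting 4 weeks. That made 8 groups of 3 arrays, 24 in all. Each array carried oesophagus RNA in Cy5 and a common reference RNA of 11 mouse cell lines in Cy3. Every level below is therefore a log2 ratio to that reference, and levels of different genes are not compared. The labels name no allele beyond Nrf2-/- and do not say whether mice without reflux had an operation.

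The TCA cycle runs in the mitochondrial matrix, where it oxidises acetyl-CoA to carbon dioxide and passes electrons to the respiratory chain. Citrate synthase feeds it, isocitrate and oxoglutarate dehydrogenases are its regulated oxidative steps, and malate dehydrogenase closes it. Skeletal muscle fibres are rich in mitochondria, and the wall of the mouse oesophagus contains striated muscle under a squamous epithelium, so the share of muscle in a dissected piece can bear on these transcripts. In bulk tissue, fewer cells of a type and less RNA per cell cannot be told apart.

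The labels call the tissue epithelium in one field and whole oesophagus in another. Of 28 skeletal muscle genes, 21 were well above background on all 24 arrays, and all 6 basal keratinocyte markers were too. The genotype labels were checked with Nfe2l2 itself, which had a log2 ratio of 1.45 to 2.18 in wild type (10 arrays with a usable spot) and between -3.81 and -2.83 on the 12 Nrf2-null arrays. The 3 Nrf2-null mixed reflux arrays differed from each other by less (SD of log2 differences 0.12 to 0.13 over genes) than any other pair of replicates (0.19 to 1.08). They were counted as 1 sample, which left 22 samples, so nothing is known of the spread in that group. The next closest were the 3 wild-type duodenal reflux arrays, at 0.19 to 0.24. The first and second wild-type arrays without reflux had 13.0% and 11.8% outlier spots against 0.29% to 0.66% on the others, and these spots were left out. As a result Idh3a, Idh3b, Sucla2 and Mdh2 rest on 1 wild-type array without reflux, Cs, Idh3g, Suclg1 and Fh1 on 2, and Ogdh on all 3. These 2 wild-type arrays shared a slide, and their median Cy5 signal over background was 63.6 and 42.7. Outside that slide, 2 arrays had a median Cy5 signal over background of 51.7 (Nrf2-null gastric reflux 1) and 47.8 (Nrf2-null duodenal reflux 2), against 99.7 to 208 on the other arrays outside that slide. Below, both low-signal arrays means these 2 Nrf2-null arrays, and sets without them keep the 2 wild-type arrays. The basal keratinocyte scores of the 2 Nrf2-null arrays were 1.08 and 1.02, against -0.52 to 0.21 in the other samples with a score. Results that rest on them are given with and without them, and the part of signal level in them was not tested.

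A skeletal muscle score summarised the 28 muscle genes on the log2 scale, centred on 0. It ran from -2.39 in wild-type gastric reflux 1 to 2.54 in Nrf2-null gastric reflux 1. The remaining wild-type gastric reflux samples stood at 2.16 and 2.09, and the remaining Nrf2-null gastric reflux samples at -1.08 and -0.95, so each of these groups held samples at both ends of the scale. Without reflux the score was -2.06, -1.19 and -1.86 in wild type and -0.93, 0.24 and 0.11 in Nrf2-null mice, with no overlap between the genotypes. Duodenal reflux samples lay between 0.22 and 0.98. Each member was therefore compared between groups without and with this score as a covariate (limma's moderated test over all genes tested, Benjamini-Hochberg adjustment, called where adjusted p was under 0.05). White fat markers moved with muscle in some of these samples (5 genes, 3 tested, 1 of them well above background on all arrays). The white fat score was 2.16 and 1.80 in wild-type gastric reflux 2 and 3, 2.34 in Nrf2-null gastric reflux 1 and 3.46 in wild-type mixed reflux 2, against -1.24 to 0.14 in every other sample. In the same order the brown fat score was 0.12, -0.10, 0.85 and -0.07. The part of fat in the results was not tested.

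The promoter windows of the members, from 250 bases before to 50 bases after each annotated start (RefSeq, GRCm38.p6), were searched on both strands for 3 short motifs. These were TNAAGGTCA, an element bound by oestrogen-related receptors, the site of nuclear respiratory factor 1 (a factor distinct from Nrf2), and TGACNNNGC, the core of the antioxidant response element that Nrf2 binds and that can overlap sites of other basic leucine zipper factors. The table gave 13 windows for 8 of the 9 members, 6 of them of Ogdh; Idh3a was not matched. The antioxidant core was present in the windows of Idh3g and Sucla2, and 12.4% of all 32851 windows hold it. The nuclear respiratory factor 1 site was present in that of Sucla2 (4.6% of all windows), and the oestrogen-related receptor element in none of the 13 (1.28% of all windows). The windows with a match are printed with the matching bases in capitals (in Sucla2 both matches lie on the opposite strand), beside that of Mdh2, a member called for genotype under gastric reflux in both models, whose window held none of the 3 motifs.
Mdh2 promoter, chr5:135778399-135778698, plus strand: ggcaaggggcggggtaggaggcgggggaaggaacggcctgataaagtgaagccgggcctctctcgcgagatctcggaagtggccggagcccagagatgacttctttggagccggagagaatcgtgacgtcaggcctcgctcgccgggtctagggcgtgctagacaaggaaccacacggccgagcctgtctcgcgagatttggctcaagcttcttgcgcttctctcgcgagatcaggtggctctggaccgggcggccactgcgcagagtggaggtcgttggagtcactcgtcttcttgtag
Idh3g promoter, chrX:73786848-73787147, minus strand: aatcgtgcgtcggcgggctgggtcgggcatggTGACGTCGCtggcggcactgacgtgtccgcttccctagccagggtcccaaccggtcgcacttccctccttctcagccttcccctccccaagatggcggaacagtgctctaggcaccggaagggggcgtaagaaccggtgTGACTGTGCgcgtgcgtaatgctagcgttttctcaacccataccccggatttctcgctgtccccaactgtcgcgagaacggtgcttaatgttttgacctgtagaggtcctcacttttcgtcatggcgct
Sucla2 promoter, chr14:73552536-73552835, plus strand: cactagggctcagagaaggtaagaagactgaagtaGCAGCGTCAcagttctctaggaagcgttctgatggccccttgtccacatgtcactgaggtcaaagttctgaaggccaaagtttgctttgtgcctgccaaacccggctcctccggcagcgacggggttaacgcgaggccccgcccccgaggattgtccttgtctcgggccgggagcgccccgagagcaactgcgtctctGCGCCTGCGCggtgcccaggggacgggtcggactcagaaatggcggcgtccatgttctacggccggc
A match is a description of letters, and no match says only that these letters are absent from the window.

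Mdh2, mitochondrial malate dehydrogenase (probe at chr5:136266157-136266216, mm9), was lower in Nrf2-null than in wild-type mice under gastric reflux. Its log2 ratio was 0.14, 1.31 and 1.19 in the 3 wild-type gastric reflux samples, a mean of 0.88 ± 0.65 (SD, n = 3). It was -0.25, -0.58 and -0.35 in the Nrf2-null gastric reflux samples, a mean of -0.39 ± 0.17 (SD, n = 3). The groups did not overlap, and the wild-type samples with the highest Mdh2 were those with a muscle score above 2. Under duodenal reflux both genotypes were low and even: -0.47, -0.45 and -0.35 in wild type, and -0.40, -0.63 and -0.43 in Nrf2-null mice. Under mixed reflux the wild-type samples gave -0.56, -0.09 and -0.46 and the Nrf2-null sample, the mean of its 3 arrays, -0.11. Without reflux the only usable wild-type spot gave 0.18, within the range of the Nrf2-null samples at 0.21, 0.32 and -0.28. In order of group means, wild-type gastric reflux stood first, both groups without reflux came next, and the other 5 groups lay between -0.48 and -0.11, neighbours whose samples overlapped.

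Ogdh, the decarboxylating subunit of the oxoglutarate dehydrogenase complex (probe at chr11:6255299-6255358, mm9), showed the same order under gastric reflux. It was 1.28, 1.69 and 1.73 in wild type (mean 1.57 ± 0.25, SD, n = 3) and -0.42, 0.55 and 0.93 in Nrf2-null mice (mean 0.36 ± 0.70, SD, n = 3). The groups did not overlap, and the lowest value belonged to the Nrf2-null array of low Cy5 signal. Under duodenal reflux Ogdh was 1.28, 0.88 and 1.07 in wild type and 0.57, 0.09 and 0.71 in Nrf2-null mice, with the lowest value on the other array of low signal. These values did not overlap, but the difference of -0.62 was not called (limma adjusted p = 0.25). The mixed reflux samples had 0.46, 1.04 and 0.65 in wild type and 1.26 in the Nrf2-null sample. Without reflux the values were 1.1, 0.75 and 0.50 against 0.80, 1.07 and 0.98, and these overlapped. A second Ogdh probe ran in parallel (r = 0.98 over 24 arrays).

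Cs, citrate synthase (probe at chr10:127799428-127799487, mm9), was lowest after duodenal reflux in both genotypes. It was -0.21, -0.17 and -0.28 in Nrf2-null duodenal reflux (mean -0.22 ± 0.06, SD, n = 3) and 0.16, 0.20 and 0.12 in wild-type duodenal reflux (mean 0.16 ± 0.04, SD, n = 3). Without reflux it was 0.59, 0.65 and 0.70 in Nrf2-null mice and 0.76 and 0.57 in wild type, so duodenal reflux and no reflux did not overlap in either genotype. The wild-type difference, -0.51, was not called (limma adjusted p = 0.097). Gastric reflux gave 0.48, 1.25 and 0.86 in wild type and 0.13, 0.29 and 0.62 in Nrf2-null mice, which overlapped. Mixed reflux gave 0.28, 0.54 and 0.49 in wild type and 0.35 in the Nrf2-null sample. The second Cs probe on the array (chr10:127798143-127798202, mm9) did not follow the first: over 22 arrays they correlated at r = -0.68, and it spanned 0.65 log2 units against 1.53. On it Cs was 1.38, 1.63 and 1.36 in Nrf2-null duodenal reflux against 1.34, 1.32 and 1.37 without reflux. Cs results below are those of the first, brighter probe, and each called Cs difference had the opposite sign and missed the threshold on the other probe.

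**Figure D1:**
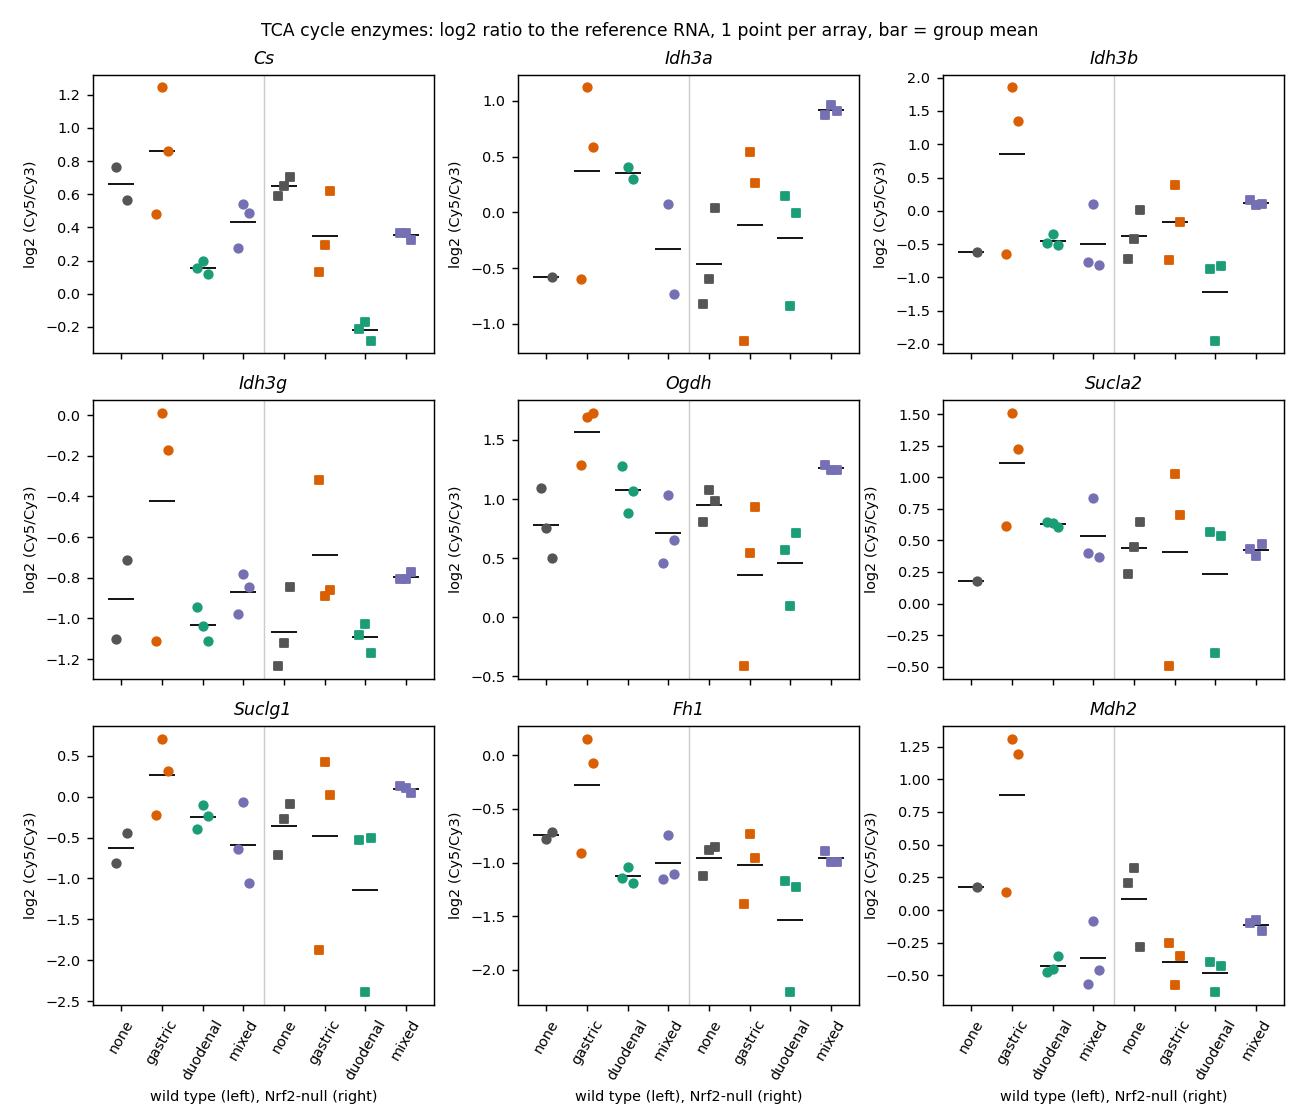
Log2 ratio to the reference RNA (y axis) of the 9 enzymes in the 8 groups (x axis); each point is an array (circles wild type, squares Nrf2-null), and the bar is the group mean over samples. Spots left out as outliers are missing, mostly in wild-type mice without reflux. For Mdh2 the wild-type gastric reflux points lie at 0.14, 1.31 and 1.19 and the Nrf2-null gastric reflux points at -0.25, -0.58 and -0.35.

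The isocitrate dehydrogenase 3 subunits make up the NAD-dependent enzyme of the cycle: Idh3a is catalytic, and Idh3b and Idh3g are its partner subunits. Their probes lie at chr9:54451368-54451427 (Idh3a), chr2:130106776-130106835 (Idh3b) and chrX:71024358-71024417 (Idh3g, mm9). Idh3b had the widest range of all members, from -1.95 in Nrf2-null duodenal reflux 2 to 1.86 in wild-type gastric reflux 2. Idh3g had the narrowest, from -1.24 to 0.01. Its 3 highest samples were wild-type gastric reflux 2 and 3 (0.01 and -0.17) and Nrf2-null gastric reflux 1 (-0.32), the 3 samples with a muscle score above 2. Its other 18 measured samples lay between -1.24 and -0.71. Idh3a was highest in the Nrf2-null mixed reflux sample among group means (0.91) and was lowest, at -1.15, in Nrf2-null gastric reflux 1.

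Sucla2 and Suclg1, the ATP-type beta subunit and the alpha subunit of succinyl-CoA ligase, and Fh1, fumarate hydratase, were each highest in wild-type gastric reflux. Their probes lie at chr14:73995311-73995370, chr6:73221044-73221103 and, split over 2431 bases, chr1:177531659-177534089 (mm9). Suclg1 was 0.71 in wild-type gastric reflux 2 and had its lowest values on the 2 arrays of low signal, -2.39 and -1.87. Sucla2 was likewise lowest there, at -0.39 and -0.50, while its 18 other measured samples lay between 0.18 and 1.51. Fh1 ranged from -2.21 to 0.15, again with the lowest value on Nrf2-null duodenal reflux 2 and the highest in wild-type gastric reflux 2. A second Sucla2 probe (chr14:73995798-73995857, mm9) was well above background on all 24 arrays and correlated with the first, brighter probe at r = 0.80 over 22. On it Sucla2 was 0.15, 2.13 and 1.59 in wild-type gastric reflux and between -1.02 and 0.18 in Nrf2-null gastric reflux, so the groups overlapped. A further Sucla2 probe, to another transcript, was well above background on 0 arrays and was not used. In 8 of the 9 members wild-type gastric reflux 2 was the highest sample, and in Ogdh wild-type gastric reflux 3 was.

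Without the covariate, the F test of equal group means called 3 members, Cs (adjusted p = 0.0039), Mdh2 (0.0099) and Ogdh (0.038), beside 30.3% of all genes tested. With the covariate it called Mdh2 (0.00071), Cs (0.0023), Idh3g (0.012) and Ogdh (0.037), beside 36.8%. Idh3g had an adjusted p of 0.24 without the covariate. With scan day as a block the F test called 0 members without the covariate (7.45% of all genes) and 1 with it (12.5%). With each array centred on its median it called 0 in both models, where the share of all genes is not given. With each array left out in turn, the count ran from 3 to 7 with the covariate, the only change of more than 1.5 times being without Nrf2-null gastric reflux 1. Without the covariate it ran from 1 to 6, and the changes beyond that size came on leaving out wild-type gastric reflux 1, 2 or 3. Here and below, counts with an array left out in turn have no share of all genes beside them. They describe only how stable the calls were.

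Under gastric reflux all 9 members were lower in Nrf2-null than in wild-type mice, by a median of -0.75 on the log2 scale, while the median over all genes tested was 0.11. Mdh2 differed by -1.27 ± 0.25 (SE, n = 3 per group; limma adjusted p = 0.0061). Ogdh differed by -1.21 ± 0.28 (limma adjusted p = 0.0096) and Cs by -0.51 ± 0.17 (limma adjusted p = 0.044). These 3 of 9 were called lower, beside 7.12% of all genes tested called lower and 17.6% in either direction. The other 6 ran from -0.27 (Idh3g) to -1.02 (Idh3b), with Fh1 at -0.75 nearest the threshold (limma adjusted p = 0.072). Sucla2 was at -0.71 (0.16), but on its second probe it was called, at -1.57 (limma adjusted p = 0.016) without and -1.51 (0.012) with the covariate. On the second probes of Cs, Ogdh and Sucla2 the count was again 3, with Sucla2 called and Cs not.

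With the muscle score in the model, the same members were called under gastric reflux. Mdh2 was at -1.20 ± 0.18 (SE; limma adjusted p = 0.00091), Ogdh at -1.23 ± 0.28 (0.0071) and Cs at -0.49 ± 0.16 (0.041). These 3 of 9 stood beside 10.2% of all genes called lower, and the median of the 9 was -0.72. The mean muscle scores of these groups, 0.62 and 0.17, were close, and each group spread over more than its distance from the other (SD 2.60 and 2.06). Group means at a muscle score of 0 were 0.78 and -0.42 for Mdh2, against 0.88 and -0.39 as measured.

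Markers of other cell types moved with this comparison. The endothelium score (4 genes, 3 of them well above background on all arrays) was 0.65, 0.98 and 1.19 in wild-type and -0.68, -1.07 and -0.26 in Nrf2-null gastric reflux. The fibroblast score (5 genes, 5 of them well above background on all arrays) was 1.24, 0.66 and 1.11 against -0.48, -1.37 and 0.46. Neither score overlapped between the genotypes, and wild-type gastric reflux had the highest mean of the 8 groups in both. That group also had the lowest mean of the 8 in the basal keratinocyte score, -0.40, and in the suprabasal squamous score, -0.43 (Crnn, a gene of that list, was never well above background). The suprabasal score did not overlap either, at -0.21, -0.38 and -0.70 in wild type against 0.65, 0.17 and 0.15. Nor did the neutrophil score (4 genes, 3 of them well above background on all arrays), at -1.19, -1.93 and -1.59 against -0.04, -0.49 and -0.63. The remaining marker scores overlapped between the genotypes. The part of these cells in the result was not tested.

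The gastric reflux difference depended on single arrays in some members. Mdh2 stayed called when any of the 6 arrays was left out, between -1.65 and -1.06 without and between -1.49 and -1.01 with the covariate. It missed the threshold in both models with each array centred on its median. With only the groups compared in the fit, Mdh2, Ogdh and Cs all missed it in both models. Ogdh with the covariate fell to -0.66 and was not called without Nrf2-null gastric reflux 1. Cs was not called, with or without the covariate, once wild-type gastric reflux 2 or 3 or Nrf2-null gastric reflux 1 or 2 was left out (-0.71 to -0.32 without it over all 6 removals). Without wild-type gastric reflux 1, the sample of lowest muscle score, 6 members were called in each model. The share of all genes called in that fit is not given, so the 6 are not read as particular to the members. All wild-type gastric reflux arrays were scanned on 1 day and all Nrf2-null gastric reflux arrays on another, so scan day and genotype cannot be told apart in this comparison. The step between these days could be estimated from 1 group only, Nrf2-null mice without reflux, with 2 arrays on the day of the wild-type gastric reflux arrays and 1 on the other day. With scan day as a block, 0 members were called in either model (0.0195% and 0.0585% of all genes were), and Mdh2 was at -0.72, Ogdh at -1.26 and Cs at -0.60 without the covariate.

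Without both arrays of low Cy5 signal, a set chosen after the values were seen, 2 members were called in each model, Mdh2 and Ogdh, beside 32.2% of all genes called in either direction without and 26.9% with the covariate. With the covariate Mdh2 was at -1.0 (limma adjusted p = 0.0048) and Ogdh at -0.64 (0.024). The other 7 ran from -0.25 (Fh1) to 0.56 (Idh3a), with Idh3b at 0.01, Sucla2 at 0.03 and Suclg1 at 0.30, and Cs at -0.23 (0.27). The median of the 9 was -0.14, against -0.72 with all samples. Without the covariate the same subset gave -1.34 for Mdh2 (0.0061) and -0.83 for Ogdh (0.010), and Cs missed the threshold (-0.41, 0.090). In that model 8 of 9 were below 0, all but Idh3a at 0.03, with a median of -0.45 against -0.75 with all samples.

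**Figure D2:**
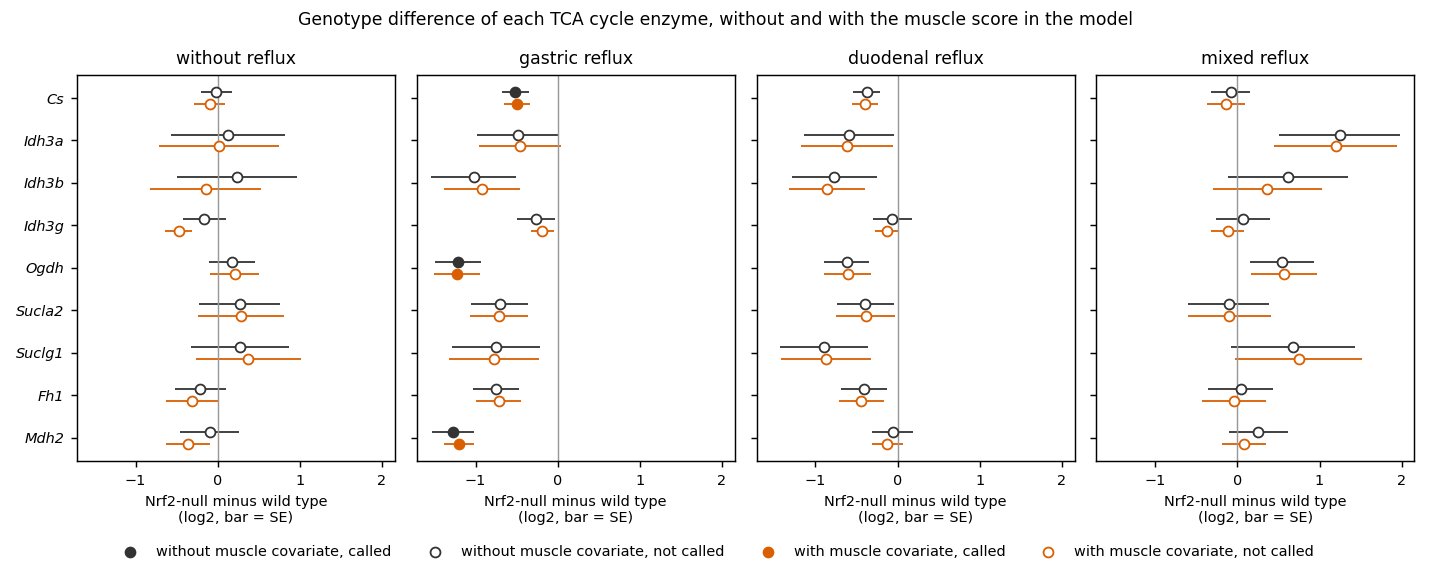
Difference Nrf2-null minus wild type (x axis, log2) of each enzyme (y axis) in each of the 4 conditions, without (black) and with (orange) the muscle score in the model; bars are the standard error and filled points are called. Filled points appear under gastric reflux only, for Cs, Ogdh and Mdh2, in both models.

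In the other conditions 0 members were called for genotype. Under duodenal reflux all 9 were below 0 (median -0.41, all genes 0.05; 1.89% of genes called), from -0.89 for Suclg1 to -0.06 for Mdh2 and Idh3g. Without both low-signal arrays the median was -0.27, with 1 of 9 above 0. For Mdh2 the 95% interval with all samples was -0.60 to 0.48. Under mixed reflux, with 1 Nrf2-null sample, 7 of 9 were above 0 (median 0.25; 3.46% of genes called). Without reflux 5 of 9 were above 0 (median 0.12; 0.17% of genes called), and Mdh2 was at -0.10 with an interval of -0.86 to 0.67. With the covariate these counts also were 0 (2.85%, 4.59% and 1.11% of genes called). In that model and without both low-signal arrays, Idh3a was called under mixed reflux, at 1.02 (limma adjusted p = 0.035; 15.1% of genes called), and Fh1 without reflux, at -0.47 (0.047; 4.48% of genes called). That set kept wild-type arrays 1 and 2 without reflux, also of low signal. Leaving out all 4 left only wild-type array 3 without reflux, where the median of the 9 in that model was -0.41. Neither of the low-signal Nrf2-null arrays belongs to the groups of the Idh3a and Fh1 calls above. With all samples their values in that model were 1.20 and -0.31, and they changed only through the muscle score, its slope and the estimated spread. With all samples and without reflux, where the muscle scores of the genotypes did not overlap, adding the score moved Idh3b from 0.23 to -0.15 and Idh3g from -0.16 to -0.48 (95% interval -0.82 to -0.13, limma adjusted p = 0.18).

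Averaged over the 4 conditions, 8 of 9 members were lower in Nrf2-null mice and 0 were called without the covariate (8.16% of genes called). With it, Mdh2 was called at -0.40 ± 0.12 (SE; limma adjusted p = 0.032), beside 6.18% of all genes called lower. It missed the threshold without wild-type gastric reflux 2, wild-type gastric reflux 3 or wild-type duodenal reflux 3, and with scan day as a block (-0.20). Mdh2 was at -0.36 without both low-signal arrays, where Cs (-0.27), Fh1 (-0.25) and Idh3g (-0.23) were called as well, beside 32.7% of all genes called in either direction.

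With the muscle score in the model, the genotype difference of Mdh2 was called as different between kinds of reflux, and without it that call was missed. The F test of genotype by reflux called Mdh2 (limma adjusted p = 0.041; 8.73% of genes called) and no other member on the brightest probes, and 0 members without the covariate (4.93% of genes called), where Ogdh had 0.062 and Mdh2 0.080. That count went to 0 or 2 on leaving out 16 of 23 arrays in turn, the wild-type gastric and duodenal reflux arrays among them, and was 0 with scan day as a block. The Mdh2 difference under gastric reflux was lower than that under duodenal reflux by -1.08 ± 0.26 (SE; limma adjusted p = 0.035; 2.68% of genes called lower). Against that under mixed reflux it was lower by -1.28 ± 0.32 (0.046; 1.84% of genes called lower). Without the covariate both values were larger and not called, -1.21 ± 0.36 (SE; limma adjusted p = 0.090) and -1.53 ± 0.44 (0.072). For Ogdh the values with the covariate were -0.62 (0.42) and -1.80 (0.057). On the second Ogdh probe the value against mixed reflux was called, at -1.92 (0.042), as was that against no reflux, at -1.72 (0.045), and the F test then called 2 members. Under 21 other settings, the first Mdh2 value with the covariate missed the threshold in 4 and the second in 11, among them the set without both low-signal arrays (-1.02, 0.089). The first missed it on removal of 9 of the 24 arrays in turn, and the second on removal of 14; both were lost without wild-type gastric reflux 2 or 3, any wild-type duodenal reflux array, Nrf2-null gastric reflux 1, or Nrf2-null duodenal reflux 1 or 3.

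Turning to reflux within each genotype, the 3 kinds of reflux share the samples without reflux as controls. In Nrf2-null mice Cs was lower after duodenal reflux than without it, by -0.87 ± 0.17 on the log2 scale (SE, n = 3 per group; limma adjusted p = 0.0021), and was the only 1 of 9 called (6.26% of all genes called lower). With the covariate Cs was at -0.91 ± 0.16 (0.0015) and Mdh2 was called as well, at -0.70 ± 0.19 (0.017; 6.93% of genes called lower). On the second Cs probe the value was 0.11 without and 0.10 with the covariate. Mdh2 missed the threshold without Nrf2-null samples 1 or 2 of the group without reflux or Nrf2-null duodenal reflux 2. Of the Nrf2-null arrays without reflux, 2 were scanned on another day than those after duodenal reflux. Within the day both share, Cs was at -0.92 without and -0.90 with the covariate and Mdh2 at -0.20 and -0.25, none of them called.

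In wild type duodenal reflux gave 0 called members without the covariate (10.3% of genes called) and 1 with it, Mdh2 at -0.94 ± 0.28 (SE; limma adjusted p = 0.035; 5.12% of genes called lower). The count was 2 without wild-type array 1 of the group without reflux. The Mdh2 value rests on 1 wild-type array without reflux, and it missed the threshold when any of the 3 wild-type duodenal arrays was left out. Cs was at -0.61 (0.051) and Idh3g at -0.52 (0.053) in the same model. Idh3g was at -0.13 without the score in the model, and the wild-type samples without reflux had the lowest mean muscle score of the 8 groups, -1.70. At a muscle score of 0 the mean of Idh3g in that group was -0.56, against -0.91 as measured. All wild-type duodenal reflux arrays were scanned on another day than the wild-type arrays without reflux, so scan day and reflux cannot be told apart here, and with scan day as a block Mdh2 was at -0.33 and 0 members were called.

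Gastric reflux in wild type put all 9 members above 0, by a median of 0.79 against -0.03 over all genes, yet 0 were called (4.14% of genes called), and 0 with the covariate (0.803%). The differences ran from 0.20 (Cs) to 1.47 (Idh3b), and Ogdh, with 3 usable samples in both groups, was at 0.79 (95% interval 0.20 to 1.37, limma adjusted p = 0.11). With the covariate Idh3g went from 0.48 to 0.02 and Mdh2 from 0.70 to 0.30, while Ogdh, Sucla2 and Suclg1 were at 0.84, 0.97 and 1.05. Wild-type gastric reflux 1, the sample of lowest muscle score, had Mdh2 (0.14), Idh3b (-0.65) and Idh3g (-1.11) close to wild type without reflux. Its Ogdh, 1.28, lay above the wild-type range without reflux, 0.50 to 1.1, and its Cs, 0.48, below 0.57 to 0.76. No wild-type gastric reflux sample had Sucla2 below 0.61 or Suclg1 below -0.22. Wild type without reflux had 0.18 (1 array) and -0.81 to -0.44. Without wild-type gastric reflux 1, 3 members were called without the covariate, and the share of all genes called in that fit is not given. Without both low-signal arrays 3 were called too without the covariate (Ogdh, Sucla2 and Suclg1, beside 16.4% of genes called). That set leaves these wild-type groups whole, so the differences were the same as with all samples (median 0.79). Only the estimated spread and the adjustment over genes differed. With the covariate that set gave a median of 0.17, 7 of 9 above 0, and 0 called (2.7% of genes called). That set kept wild-type arrays 1 and 2 without reflux, also of low signal. Leaving out all 4 left only wild-type array 3 without reflux, with a median of 0.71 without and 0.17 with the covariate. In Nrf2-null mice gastric reflux gave 0 called in both models (0.579% and 1.44% of genes called), and 1 with the covariate without Nrf2-null sample 3 of the group without reflux. Without both low-signal arrays and with the covariate, Idh3a (1.13), Idh3b (0.87), Sucla2 (0.56) and Suclg1 (0.75) were called higher after gastric reflux in Nrf2-null mice, beside 8.9% of all genes called in either direction. That set held only arrays 2 and 3 of Nrf2-null gastric reflux. Nrf2-null arrays 1 and 2 without reflux were scanned on another day than these, and the part of scan day in these calls was not tested. Mixed reflux gave 0 called members in wild type (0.0536% and 0.36% of genes called) and in Nrf2-null mice (4.71% and 6.2%).

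The slope of each member on the muscle score within groups gave the relation itself. It was positive in 6 of 9 members, and 2 were called, Idh3g at 0.18 ± 0.03 log2 units per unit of score (SE, 22 samples; limma adjusted p = 0.0019) and Mdh2 at 0.16 ± 0.04 (0.030), beside 6.18% of all genes called with a positive slope. Idh3b had the steepest slope, 0.23 ± 0.11, and missed the threshold (0.21). Suclg1, Ogdh and Sucla2 were at -0.06, -0.03 and -0.01. Mdh2 missed the threshold without any 1 of the 3 wild-type gastric reflux samples, and Idh3g without wild-type gastric reflux 1.

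Without both low-signal arrays the slope was positive in all 9 members and called in 7, beside 11.7% of all genes called in either direction. Idh3b was at 0.46 (limma adjusted p = 3.6e-05), Idh3a at 0.32 (0.0026), Suclg1 at 0.21 (0.011), Mdh2 at 0.21 (0.0068), Fh1 at 0.19 (0.00043), Idh3g at 0.19 (0.0048) and Sucla2 at 0.17 (0.0034). Ogdh at 0.12 (0.10) and Cs at 0.11 (0.058) were not called. Nrf2-null gastric reflux 1 paired the highest muscle score of all samples with the lowest Idh3a, Ogdh and Sucla2.

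**Figure D3:**
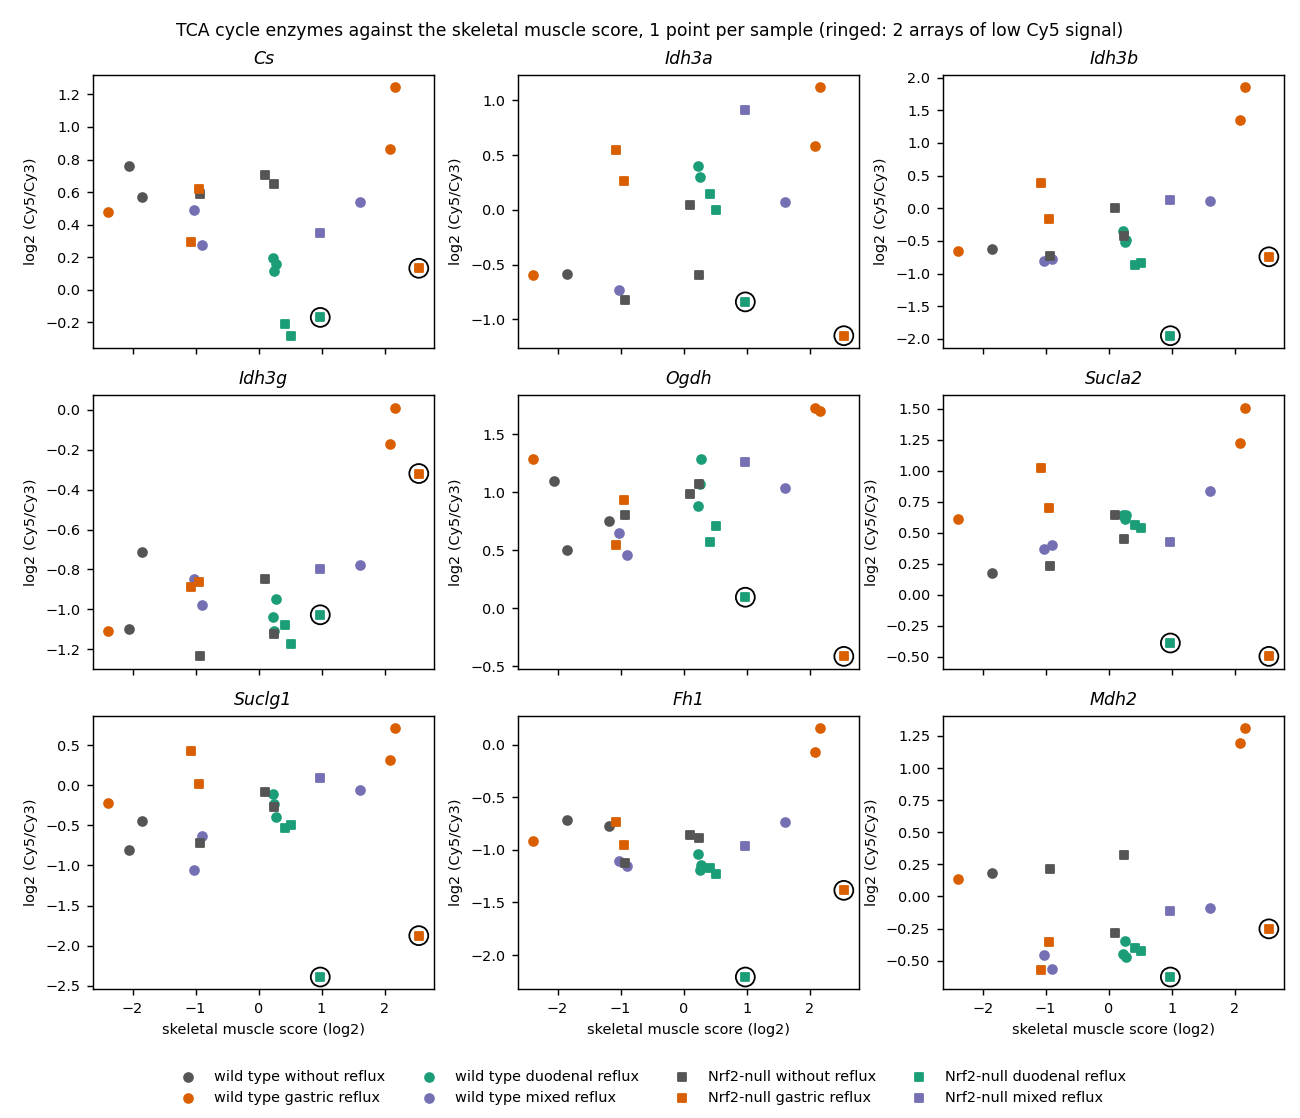
Log2 ratio of each enzyme (y axis) against the skeletal muscle score (x axis, log2, centred on 0), 1 point per sample; circles are wild type, squares Nrf2-null, colours the kind of reflux, and rings mark the 2 low-signal arrays. In most panels wild-type gastric reflux 2 and 3 (scores 2.16 and 2.09) are the highest points, and the ringed array at a score of 2.54 lies far below them in Ogdh, Sucla2 and Suclg1.

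**Figure D4:**
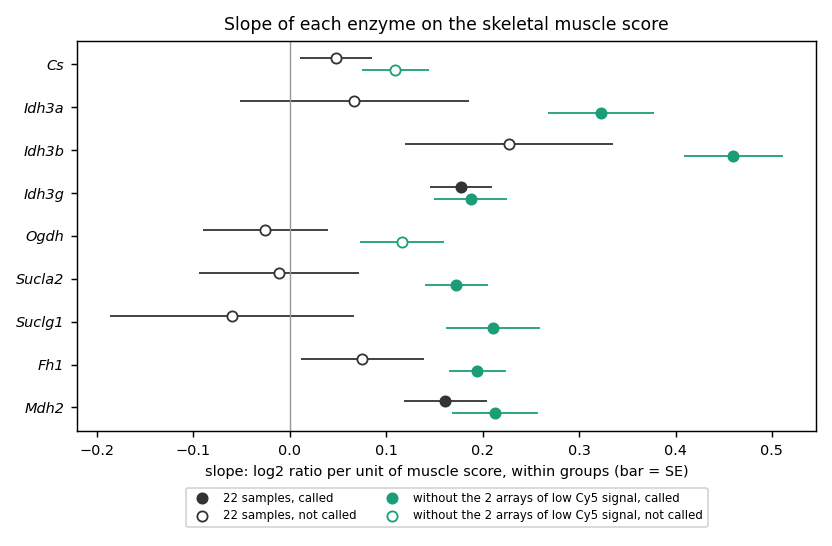
Slope of each enzyme (y axis) on the muscle score within groups (x axis, log2 per unit of score) with its standard error, for 22 samples (black) and without both arrays of low Cy5 signal (green); filled points are called. Called points number 2 with all samples and 7 without those arrays.

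The members varied together across samples. Over 36 pairs of members the correlation of log2 ratios had a median of 0.70 and ran from 0.19 (Idh3g and Ogdh) to 0.93 (Idh3b and Fh1). After group means and the muscle score were taken out, the median was 0.61, from -0.10 to 0.98. These points share arrays, labelling and signal level, and the correlations describe these 22 samples. Of 20529 other genes, those most like the mean of the members were Ugp2 (r = 0.97), Vdac2 (0.96), Klhdc2 (0.96), the unnamed transcript TC1765066 (0.96), Sdhb (0.95), Actr8 (0.95), Dnajb4 (0.94), Spag7 (0.94), Atp5g1 (0.94) and Ndufv2 (0.94), each over 20 to 22 samples. Sdhb is a subunit of succinate dehydrogenase, Ndufv2 of respiratory complex I and Atp5g1 of the mitochondrial ATP synthase, and Vdac2 is a channel of the outer mitochondrial membrane. With group means and muscle score removed, the closest of 15353 genes measured in all samples were Hikeshi, Dld, Brox, Cops8 and Klhdc2 (r from 0.97 to 0.98), of which Dld is the dihydrolipoamide dehydrogenase subunit that the oxoglutarate dehydrogenase complex contains.

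Other genes of the cycle and of its entry and exit steps were also lower in Nrf2-null mice under gastric reflux, among them Idh2, Dld, Pdk1 and Pdk2. Scan day and genotype cannot be told apart for them either. With scan day as a block, 0.0195% of all genes were called without and 0.0585% with the covariate. How these other genes depend on single arrays or on the low-signal arrays is not given here. Of 27 listed, 26 were tested, and 6 were called lower and 0 higher in Nrf2-null mice without the covariate (median -0.69); 8 and 0 were with it (median -0.65), beside 7.12% and 10.2% of all genes called lower. Idh2, the NADP-dependent mitochondrial isocitrate dehydrogenase, was at -1.33 ± 0.36 (SE; limma adjusted p = 0.020) without the covariate. Dld was at -1.17 (limma adjusted p = 0.039). The pyruvate dehydrogenase kinases Pdk1 and Pdk2, which inhibit entry of pyruvate, were at -1.08 (0.034) and -1.26 (0.020), and Pdk4 was called with the covariate, at -1.0 (0.0095). Of 8 cytosolic counterparts 3 were called lower in both models, among them Got1 (-1.47, 0.029) and Mdh1 (-0.96, 0.012), the cytosolic aspartate aminotransferase and malate dehydrogenase. Of 8 regulators of mitochondrial genes, 2 were called lower in both models, the coactivators Ppargc1a (-2.29 ± 0.59, 0.016) and Ppargc1b (-1.43 ± 0.37, 0.016).

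Averaged over the 4 conditions, 0 genes of these lists were called without the covariate. With it 3 of the 26, 2 of the 8 cytosolic counterparts and 1 of the 8 regulators were called lower and 0 higher, beside 6.18% of all genes called lower and 14.8% in either direction. Ppargc1a was then at -1.12 (limma adjusted p = 0.0052), Pdk1 at -0.59 (0.0062), Pdk2 at -0.49 (0.013), Got1 at -0.46 (0.045) and Mdh1 at -0.46 (0.022). On the muscle score, 7 of the 26 had a called positive slope and 1 a negative one, and Ppargc1a had a slope of 0.41 ± 0.09 log2 units per unit of score (SE; limma adjusted p = 0.0093).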

How the data were processed

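The deposited scanner files hold Cy5 and Cy3 intensity per spot, and the scanner software's own log10 ratio of the dyes, per the file headers. Total oesophagus RNA was labelled with Cy5 and a common reference RNA with Cy3, per the labels. A value table by the authors, read as log2 by its slope on the scanner's log10 ratio (2.58 to 3.14), has column medians of 0 to 0.069; its normalization is not stated in the sources used. Agilent Feature Extraction 9.1 is named in the submitters' processing notes, while the file headers give later versions.

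Intensities were background-corrected (normexp, offset 50) and loess-normalized within arrays with limma 3.58.1 in R 4.3.3. Control and outlier spots were left out. Each gene was represented by its brightest probe and tested if some group had it well above background (Cy5) on each of its arrays. Group means were fitted over 22 samples without and with the muscle score, variances were moderated with limma, and p-values were Benjamini-Hochberg adjusted over all genes tested (threshold 0.05). Spots left out drop that sample from the fit of that gene. The lone Nrf2-null mixed reflux sample was assumed to vary like the other groups. The code was tested on simulated data. The labels call replicates biological without naming animals, so p-values measure the spread between these samples.

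The members, the lists and the tests were chosen with earlier results of these data known. From the lists, at most 10 genes called for genotype under gastric reflux or averaged over conditions, in either model, were named by size of difference; 1 of them is not reported here. Alternatives covered background, normalization, probe choice, filters, the muscle score, slide, scan day, the replicate block and arrays left out.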

Additional observations from a re-analysis of the deposited data

Results flagged for a closer look

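With the muscle score in the model, the Mdh2 difference between genotypes was called as different between kinds of reflux. The difference under gastric reflux was lower than that under duodenal reflux by -1.08 on the log2 scale and lower than that under mixed reflux by -1.28, where the Nrf2-null group is 1 sample. The F test of genotype by reflux gave Mdh2 an adjusted p of 0.041 (limma, Benjamini-Hochberg). Without the score the values were -1.21 and -1.53 and missed the threshold (limma adjusted p = 0.090 and 0.072). With the score and scan day as a block these differences were -0.45 and -0.64 and neither was called.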

How the results depend on the processing

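Counts of called members, recomputed under each alternative, stayed within 1.5 times the reported count in 672 cases and moved further in 146; the cause was not tested. Below, (with) and (without) refer to the muscle covariate. The share of all genes called moved with the setting too. For genotype under gastric reflux (without) it was 17.6% as reported, 32.2% without the 2 low-signal arrays outside slide 1 and 0.0195% with a scan day block. That share is not printed beside each count below, so no count there is read as particular to the members. The called Cs differences reversed on the other Cs probe, to 0.27 (without) and 0.28 (with) for genotype under gastric reflux and to 0.11 and 0.10 for duodenal reflux in Nrf2-null mice. Centring each array on its median moved the median of all genes for genotype without reflux from 0.03 to 0.32. With the Nrf2-null mixed arrays as 3 samples the count was 2 for F of genotype by reflux (with), F of genotype by reflux (without), 3 for duodenal in wild type (with), genotype averaged (with) and 1 for genotype averaged (without), mixed in null (without). In the authors' value table the count was 0 for genotype averaged (with) and 1 for muscle slope. With each array centred on its median the count was 0 for F over groups (with), F over groups (without), F of genotype by reflux (with), duodenal in null (with), duodenal in null (without), duodenal in wild type (with), genotype averaged (with), muscle slope and 1 for gastric in wild type (without), genotype under gastric (with), genotype under gastric (without). With local backgrounds as read the count was 2 for F of genotype by reflux (with), F of genotype by reflux (without) and 1 for gastric in wild type (with), gastric in wild type (without), mixed in wild type (with). With all probes of a gene averaged the count was 2 for F of genotype by reflux (with) and 1 for F of genotype by reflux (without). With a smooth muscle score added the count was 2 for F of genotype by reflux (with), 1 for duodenal in null (with) and 0 for duodenal in wild type (with), genotype averaged (with). With the square of the muscle score added the count was 8 for F over groups (with), genotype under gastric (with), 2 for F of genotype by reflux (with), 4 for duodenal in null (with), 3 for duodenal in wild type (with), 1 for gastric in wild type (with) and 6 for genotype averaged (with). With a score from filament genes the count was 3 for duodenal in wild type (with). With only the groups compared the count was 0 for duodenal in null (with), genotype under gastric (with), genotype under gastric (without), 4 for duodenal in wild type (without) and 1 for genotype under duodenal (with). With outlier spots kept the count was 1 for F of genotype by reflux (without). Within scan day 3 the count was 0 for duodenal in null (with), duodenal in null (without). With a scan day block the count was 1 for F over groups (with), duodenal in null (with) and 0 for F over groups (without), F of genotype by reflux (with), duodenal in null (without), duodenal in wild type (with), genotype under gastric (with), genotype under gastric (without), genotype averaged (with). With the scanner software's ratio the count was 2 for duodenal in wild type (with), genotype averaged (with). With the other probe of Cs, Ogdh and Sucla2 the count was 2 for F of genotype by reflux (with), 1 for F of genotype by reflux (without), duodenal in null (with) and 0 for duodenal in null (without). With slide as a random block the count was 2 for F of genotype by reflux (with) and 3 for duodenal in wild type (with). With a slide block the count was 8 for duodenal in null (with), 4 for duodenal in null (without), 3 for gastric in null (with) and 1 for gastric in null (without). Over genes above background on all arrays the count was 3 for duodenal in wild type (with). Without the 2 arrays of slide 1 the count was 0 for F of genotype by reflux (with), duodenal in wild type (with) and 2 for genotype averaged (with). Without the 2 other low-signal arrays the count was 9 for F over groups (with), 1 for F of genotype by reflux (without), genotype under mixed (with), genotype without reflux (with), mixed in null (with), 4 for duodenal in null (with), duodenal in wild type (with), gastric in null (with), genotype averaged (with), 3 for gastric in wild type (without), 2 for mixed in wild type (with) and 7 for muscle slope. Without all 4 low-signal arrays the count was 9 for F over groups (with), 2 for F of genotype by reflux (with), 1 for F of genotype by reflux (without), genotype under mixed (with), mixed in null (with), 4 for duodenal in null (with), duodenal in wild type (with), gastric in null (with), genotype averaged (with) and 8 for muscle slope. With arrays left out in turn the counts ran from 3 to 7 for F over groups (with), from 1 to 6 for F over groups (without), from 0 to 2 for F of genotype by reflux (with), from 0 to 2 for F of genotype by reflux (without), from 1 to 2 for duodenal in null (with), from 0 to 2 for duodenal in wild type (with), from 0 to 1 for gastric in null (with), from 0 to 3 for gastric in wild type (without), from 1 to 6 for genotype under gastric (with), from 2 to 6 for genotype under gastric (without), from 0 to 2 for genotype averaged (with), from 0 to 2 for genotype averaged (without), from 0 to 4 for muscle slope.

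Samples were not treated as paired by replicate number. Over 63 same-number pairs the correlation of deviations from group means had a median of 0.02, from -0.65 to 0.57, and 16 exceeded 0.1. Over 126 pairs of different number the median was -0.002, from -0.63 to 0.67, and 40 exceeded 0.1. With spreads this wide, these values cannot show whether the animals were paired. With the replicate block the count was 0 for F of genotype by reflux (with), duodenal in wild type (with), genotype averaged (with) and 1 for muscle slope. The low-signal arrays and the other Cs probe were chosen as alternatives after the data were seen. Spots on 4 arrays of low Cy5 signal lie nearer background, and the number of arrays limits the precision.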
